A study of Mus musculus with 12 samples.

Results

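The genes described here are 32 named members of the machinery that brings fatty acids into a cell and burns them in its mitochondria, chosen by their symbols from the 17637 genes of the table. Levels were compared between 2 kinds of tissue from hearts of wild-type CD1 mouse embryos (an outbred stock) at stage E16.5, with no treatment named in the labels. Artery libraries came from the mesothelium and submesothelium, the epithelial sheet and the layer beneath it, over the root of the great vessels. Ventricle libraries came from epicardium and subepicardium, the matching layers over the lower chambers. Tissue of the embryos of 1 litter was pooled for each library, and 6 litters, numbered 1 to 6, supplied both kinds, which makes 6 libraries per group. All 32 genes were in the table, and all 32 had the mean value of at least 1 over the 12 libraries that was asked of a tested gene. A level is given as a normalized value, in CPM of a scaled library size. A difference is the artery mean minus the ventricle mean on the scale of log2(value + 1), with its standard error, and on that scale the change of low genes is understated.

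Fatty acids reach heart tissue bound to albumin or inside lipoproteins, from which lipoprotein lipase frees them. Inside the cell they are tied to coenzyme A by acyl-CoA synthetases, passed into mitochondria as carnitine esters and shortened step by step in the beta-oxidation spiral, whose electrons enter the respiratory chain. The adult heart draws most of its energy from this route, while the fetal heart relies more on glucose and lactate and turns to fatty acids around birth. The nuclear receptor PPAR alpha and its coactivator PGC-1 alpha switch many of these genes on.

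Of the 32 genes, 20 were lower in artery, 3 were higher and 9 did not pass the test (limma, Benjamini-Hochberg adjusted over 14779 genes, threshold 0.05). Over all tested genes, 11.8% were lower and 12.2% were higher by the same rule. The median difference of the 32 genes was -0.59, against -0.04 over all tested genes, and 28 of the 32 lay below 0. The acyl-CoA dehydrogenases (4 of 4), the electron transfer genes (3 of 3) and the later steps of the spiral (5 of 6) held 12 of the 20 lower genes. The 3 higher genes were the carnitine palmitoyltransferases Cpt1a and Cpt1c and the transporter Slc27a1. The groups did not overlap for 5 lower genes (Lpl, Acadl, Hadhb, Acaa2 and Acsl4), where 4.25% of all tested genes were lower without overlap, and for 1 higher gene (Cpt1c), where 7.61% were. In bulk tissue of this kind, fewer cells that carry a transcript and less transcript per cell cannot be told apart.

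**Figure D1:**
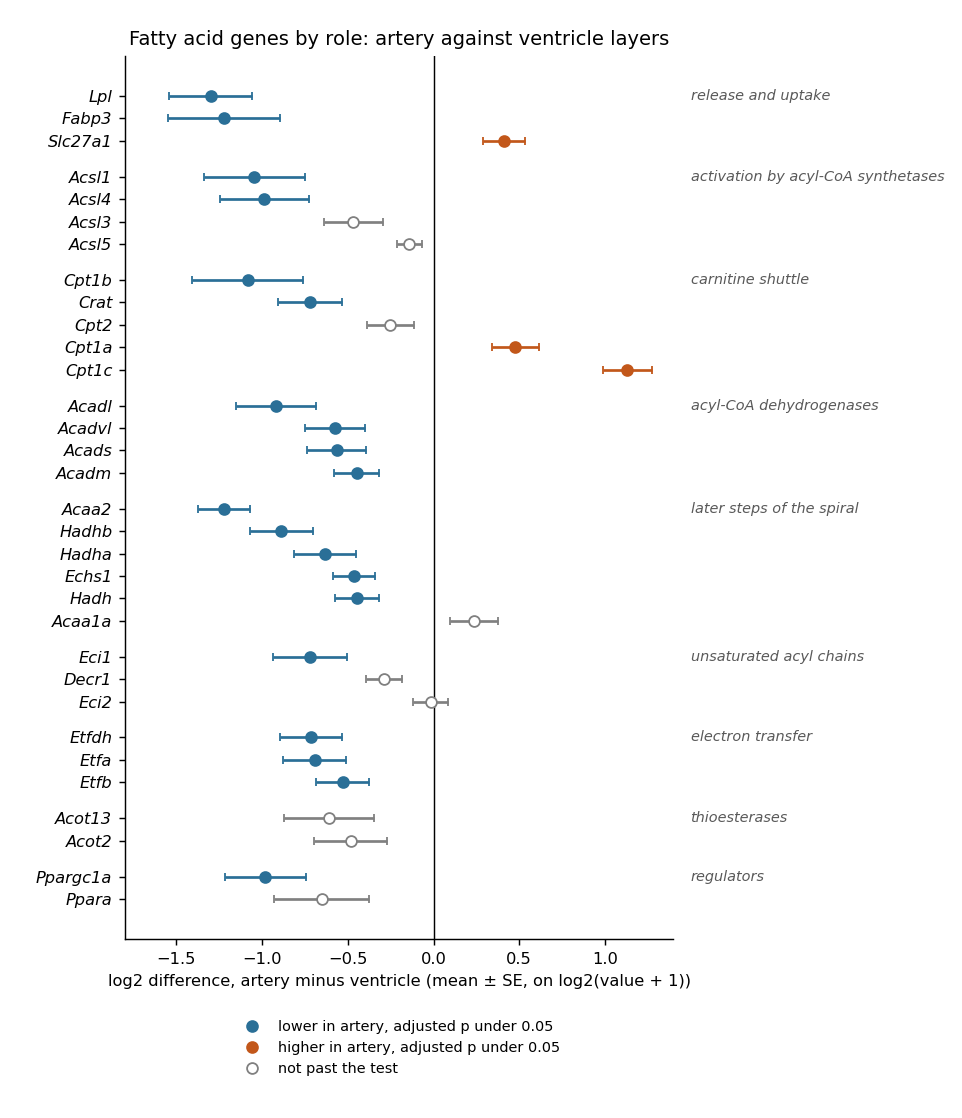
Difference of each of the 32 genes on the log2(value + 1) scale, artery minus ventricle (points, with bars of 1 standard error, 6 libraries per group), grouped by role. Filled points passed the test, 20 below 0 and 3 above 0, and open points did not.

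Artery 1 and artery 4 stood apart from the other artery libraries, artery 1 on the second principal component (23.79% of the variance) and artery 4 nearest to ventricle on the first (47.28%). Without both of them, 20 genes were lower and 2 were higher (17.8% and 16.9% of all tested genes), and Cpt1a missed the threshold (limma adjusted p = 0.0523). By the fit with litter as a block the counts were also 20 and 3 (12.6% and 11.9% of all tested genes), as they were by edgeR on recovered reads (9.9% and 13.4%) and with lane as a term (11.7% and 12.9%). Neither of the first 2 fits changed the call of a gene, whereas with lane as a term Cpt1b lost its call (limma adjusted p = 0.0507) and Decr1 was called lower (limma adjusted p = 0.0303). Without litter 3, 5 genes were lower and 1 was higher in the fit without a block (5.7% and 8.3% of all tested genes), and 16 and 2 in the fit with the litter block (7% and 7.86%). Of the 23 called genes, 18 passed with the block in each of the 6 fits that left out 1 litter. The other 5, Acadvl, Acads, Hadha, Etfb and Slc27a1, lost the call there without litter 3, and all of these but Hadha also without at least 1 other litter. Where the loss of a call is given for a gene below, it is that of the fit without a block, followed by the highest adjusted p over the 6 litter omissions with the block. Without artery 3 alone the counts were 12 and 1 (8.74% and 10.1% of all tested genes), without ventricle 5 alone 20 and 1 (9.87% and 11%), and without ventricle 2 alone 17 and 3 (9.32% and 10.4%). The 20 lower genes stayed below 0 and the 3 higher genes above 0 in all 18 fits that left out 1 litter or 1 library. A kept sign was likely from the start for genes called on these same libraries, and the share among all called genes was not taken. Hadhb, Acaa2, Ppargc1a, Lpl and Cpt1c passed the test in all 18, which were fitted without a block. The library descriptions name sequencing lanes, whose numbers may belong to different flow cells. Libraries with the same lane number therefore need not share a sequencing batch. In lane 1 (2 libraries per group) the 20 lower genes ran from -1.83 (Lpl) to -0.51 (Acads), and in lane 2 (3 artery, 4 ventricle) from -1.22 (Fabp3) to -0.40 (Hadh). Within lane 1 alone, Lpl and Etfa passed as lower and Cpt1c as higher (0.683% and 1.48% of all tested genes). Within lane 2 alone, Acaa2 and Acot13, which is not one of the 20, passed as lower and Cpt1c as higher (2.32% and 6.89%). Lane 4 held artery 6 alone.

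Read totals were 6.77 to 18.99 M in artery and 16.45 to 22.1 M in ventricle. The defining genes of the labelled tissue, Wt1 and Upk3b of mesothelium and epicardium, were read in every library. The counts of markers below stand beside 11.8% lower and 12.2% higher over all tested genes. The 8 epicardial markers were all lower in artery (0.140 to 0.280% of reads, against 0.233 to 0.435%), and the 7 smooth muscle markers all higher (0.181 to 0.357% against 0.0542 to 0.0799%). Of 8 blood endothelial markers, 3 were lower and the other 5 did not pass (0.0607 to 0.0995% against 0.0853 to 0.112%). Of 6 erythroid markers 2 were higher (0.265 to 1.60% against 0.156 to 0.322%), with artery 6 highest. Of 6 macrophage markers 1 was lower and 1 higher (0.0246 to 0.0334% against 0.0258 to 0.0374%). Of 4 tested neuronal markers, 2 were higher, and the list of 5 in the table held 0.00120 to 0.00385% of reads in artery against 0.000574 to 0.000778%, higher in 6 of 6 litters with no overlap. Of the 8 fat cell markers, Cidea alone was analysed, at 2.35 to 6.16 in artery and 2.95 to 8.13 in ventricle and not past the test. The part of these cell types in the differences was not tested.

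Markers of heart muscle, which in the adult uses this route heavily, held a lower share of reads in artery, as these genes did. The 24 heart muscle markers held 1.27 ± 0.614% of reads in artery (0.503 to 2.06%) and 2.54 ± 0.883% in ventricle (1.647 to 4.15%; mean ± SD of 6 libraries per group), and were lower in artery in 6 of 6 litters. Of the 24, 14 were lower and 0 higher (9 and 0 by edgeR, and 0 higher at an unadjusted p under 0.05). Of all tested genes, 11.8% were lower and 12.2% higher by limma (9.9% and 13.4% by edgeR). The other 10 markers did not pass, among them Myh6 (-0.65, limma adjusted p = 0.283) and Nppa (1.16, limma adjusted p = 0.228), the only 1 above 0. Myh7 had the highest mean level of the 24 (2690 in artery, 6392 in ventricle) and weighs most in their share. The defining markers Myl2, Tnnt2 and Actc1 were all lower and were at 0 in no library. The 32 fatty acid genes together held 0.263 ± 0.0468% of reads in artery (0.191 to 0.306%) and 0.424 ± 0.0904% in ventricle (0.346 to 0.598%). Both shares were lowest in artery 3 and artery 5 and highest in ventricle 2. In artery 1 the muscle share (2.06%) lay above those of ventricle 4 and ventricle 5 (1.647% and 1.898%). The fatty acid share of artery 1 (0.306%) lay below theirs (0.346% and 0.363%). Among the ventricle libraries, 27 of the 32 genes and 23 of the 24 muscle markers were highest in ventricle 2, against 25.99% of all tested genes. Among the artery libraries, 15 of the 32 and 17 of the 24 were lowest in artery 3, against 8.65% of all tested genes. The part of heart muscle content in the differences below was not tested.

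**Figure D2:**
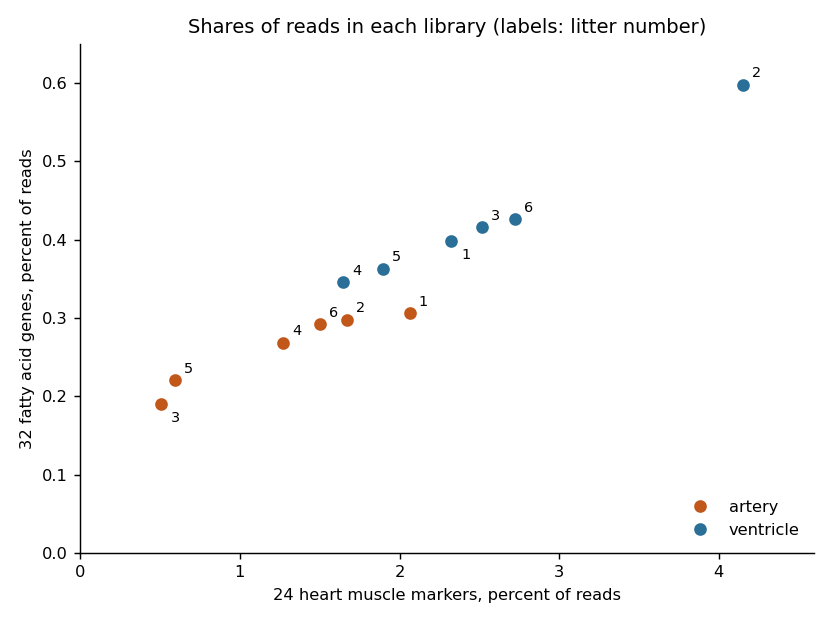
Percent of each library's reads in the 32 fatty acid genes against the percent in the 24 heart muscle markers, with litter numbers beside the points. Ventricle 2 lies highest on both axes (4.15% and 0.598%), artery 3 lowest on both (0.503% and 0.191%), and the fatty acid shares of the groups do not overlap.

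Lpl had the largest downward difference of the 32 genes. It encodes lipoprotein lipase, which frees fatty acids from circulating triglyceride, and lies at chr8:68880491-68907448 (GRCm38, plus strand). Its values in litters 1 to 6 were 69.0, 146, 67.1, 153, 72.2 and 126 in artery and 258, 378, 251, 186, 202 and 239 in ventricle. Every artery library lay below every ventricle library, with litter 4 the closest pair. The difference was -1.30 ± 0.24 (limma adjusted p = 0.00148), and Lpl was lower in 6 of 6 litters. Fabp3, the heart-type fatty acid binding protein that carries fatty acids through the cytosol, ran from 65.7 to 275 (median 197) in artery and from 263 to 675 (median 355) in ventricle. Only artery 6 reached the ventricle range. Its difference was -1.22 ± 0.33 (limma adjusted p = 0.0148), lower in 6 of 6 litters, and the call was lost without litter 5 (limma adjusted p = 0.0546, with the block at most 0.0300). Slc27a1 encodes a fatty acid transport protein of the plasma membrane and went the other way, from 29.0 to 46.5 (median 42.0) in artery and from 25.7 to 32.5 (median 29.4) in ventricle. It was higher in artery by 0.41 ± 0.12 (limma adjusted p = 0.0248) in 5 of 6 litters, with litter 6 just below 0. That call was lost without litter 1, litter 2, litter 3, litter 5, artery 3, artery 5 or ventricle 5 (limma adjusted p from 0.0560 to 0.119, with the block at most 0.127).

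Of the 4 acyl-CoA synthetases, which activate fatty acids, 2 were lower. Acsl1, the main synthetase of heart muscle and fat, ran from 25.2 to 79.2 (median 51.9) in artery and from 68.9 to 188 (median 96.4) in ventricle. Artery 2 and artery 6 reached the ventricle range, and within each litter artery was the lower. The difference was -1.04 ± 0.29 (limma adjusted p = 0.0194), and the call was lost without litter 3 (limma adjusted p = 0.0849, with the block at most 0.0118). Acsl4, which prefers arachidonic acid, had values of 6.60, 25.5, 18.3, 30.2, 18.2 and 21.3 in artery for litters 1 to 6. Its ventricle values were 41.0, 36.7, 36.6, 36.9, 34.4 and 38.4, all above the highest artery library. Artery 1 lay far below the rest of its group, and the ventricle libraries were among the most even of all 32 genes, with a coefficient of variation of 5.94%. The difference of Acsl4 was -0.99 ± 0.26 (limma adjusted p = 0.0131), lost without litter 3 (limma adjusted p = 0.0517, with the block at most 0.0498), and was -0.82 without artery 1 and artery 4. Acsl3, of the endoplasmic reticulum and lipid droplets, differed by -0.47 ± 0.17 (limma adjusted p = 0.0645) and Acsl5, found on mitochondria and endoplasmic reticulum, by -0.14 ± 0.07 (limma adjusted p = 0.179). Acsl5 was also the most even gene across ventricle libraries, at 50.5 to 55.9.

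The carnitine shuttle split by isoform. The outer membrane enzyme carnitine palmitoyltransferase I, the committed step of entry, comes as the widespread or liver form Cpt1a and the muscle form Cpt1b. Cpt1c is a related neuronal form with little catalytic activity. Cpt1b lies at chr15:89416405-89425863 (minus strand) and ran from 36.9 to 134 (median 88.2) in artery and from 114 to 312 (median 169) in ventricle. Artery 1 and artery 2 lay inside the ventricle range and artery 3 and artery 5 far below it. The difference of Cpt1b was -1.09 ± 0.33 (limma adjusted p = 0.0264), lower in 6 of 6 litters. It was lost without litter 3, litter 5, litter 6, artery 3, artery 5, ventricle 2 or ventricle 3 (limma adjusted p from 0.0531 to 0.105, with the block at most 0.0351), and with lane as a term (limma adjusted p = 0.0507). Cpt1a, at chr19:3322334-3385733 (plus strand), ran from 77.8 to 134 (median 106) in artery and from 58.5 to 84.2 (median 75.7) in ventricle. In each litter artery was the higher, by 0.31 to 0.82, although the ranges overlapped. The difference was 0.48 ± 0.14 (limma adjusted p = 0.0227), and was lost without litter 3, artery 3, ventricle 5 or ventricle 6 (limma adjusted p from 0.0515 to 0.0727, with the block at most 0.0223).

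Cpt1c, at chr7:44959372-44974851 (minus strand), had values of 71.9, 48.2, 66.2, 39.6, 65.8 and 45.6 in artery for litters 1 to 6. In ventricle they were 21.4, 22.5, 24.7, 26.5, 26.7 and 25.9. All 6 artery libraries lay above all 6 ventricle libraries, and the difference of 1.13 ± 0.14 had the smallest p of the 5 shuttle genes (limma adjusted p = 6.54e-05). The neuronal markers also held a larger share of reads in every artery library than in any ventricle library, and their part in the difference of Cpt1c was not tested. Crat, carnitine acetyltransferase, which exchanges short acyl groups, ran from 72.1 to 144 (median 111) in artery and from 133 to 268 (median 167) in ventricle. Artery 1 alone reached the ventricle range. Its difference was -0.72 ± 0.19 (limma adjusted p = 0.0126), lost without litter 3 (limma adjusted p = 0.0667, with the block at most 0.0286). Cpt2, the inner membrane enzyme that returns the acyl group to coenzyme A, differed by -0.25 ± 0.14 (limma adjusted p = 0.216).

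**Figure D3:**
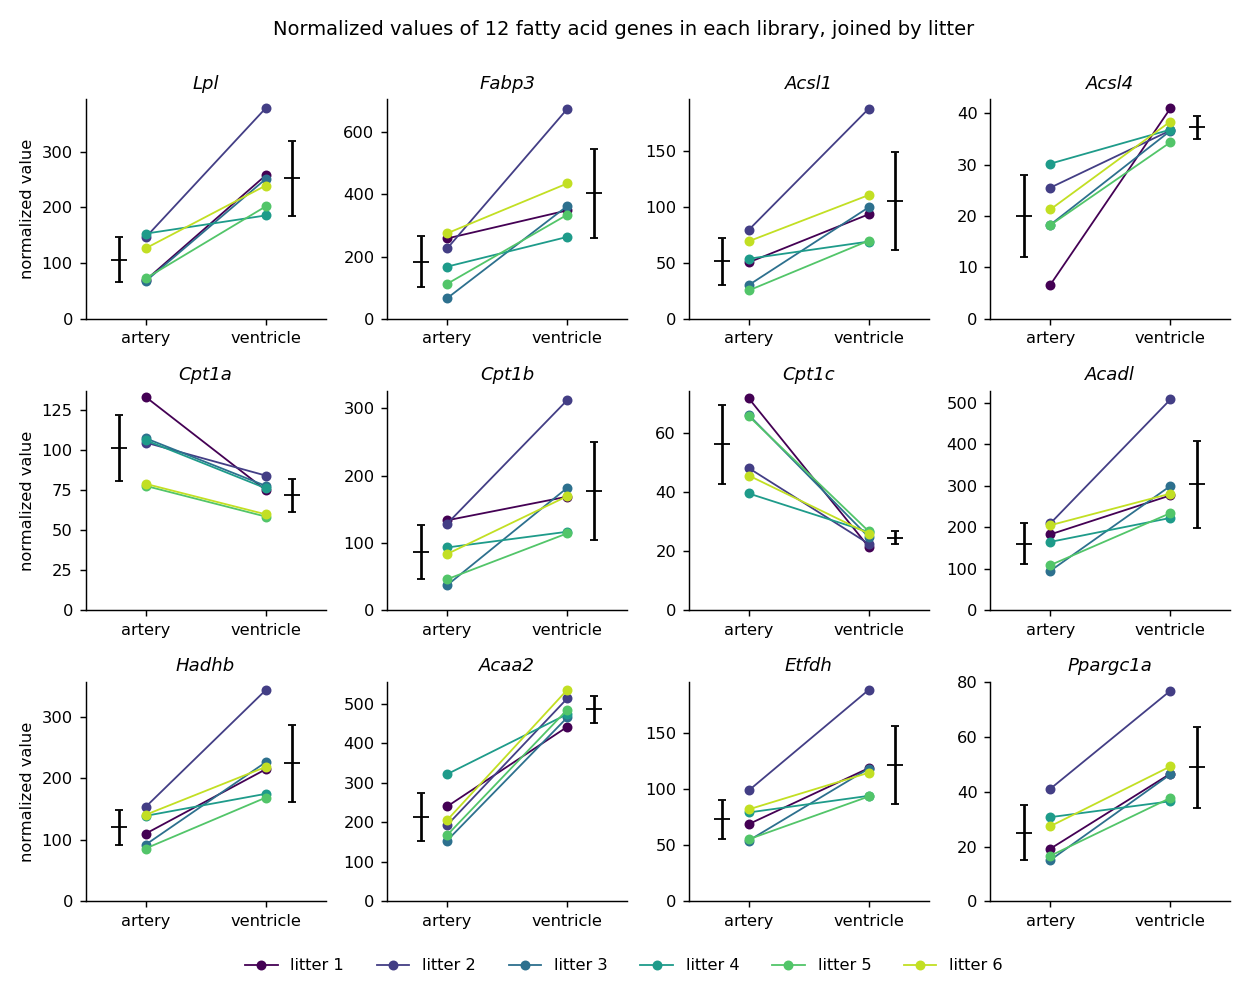
Normalized values of 12 of the genes in each library, with the artery and ventricle libraries of a litter joined by a line, and the group mean with 1 SD beside the points (n = 6). Cpt1a and Cpt1c decline from artery to ventricle in every litter, and the other 10 genes climb.

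The 4 acyl-CoA dehydrogenases chosen here, which take the first step of the spiral on chains of decreasing length, were all lower in artery. Other genes of this family were on the wider list described below. Of these, Ivd was lower (-0.51, limma adjusted p = 0.0177). Acadsb (-0.23), Acad9 (-0.21), Acad10 (-0.19), Acad11 (-0.16), Acad12 (-0.10) and Acad8 (0.16) did not pass (limma adjusted p from 0.1116 to 0.7178). Acadl, the long-chain enzyme, ran from 94.6 to 209 (median 174) in artery and from 222 to 509 (median 279) in ventricle, with no overlap. Its difference was -0.92 ± 0.23 (limma adjusted p = 0.0111), lost without litter 3 (limma adjusted p = 0.0516, with the block at most 0.0215). Acadvl, the very-long-chain enzyme, ran from 88.9 to 139 (median 119) in artery and from 130.2 to 272 (median 161) in ventricle, so that artery 1 and artery 2 reached the ventricle range. Its difference was -0.58 ± 0.18 (limma adjusted p = 0.0285), lost without litter 3, litter 6, artery 3, artery 5, ventricle 3 or ventricle 6 (limma adjusted p from 0.0502 to 0.135, with the block at most 0.0570). Acadm, the medium-chain enzyme, whose loss causes the most common inherited disorder of the pathway in people, ran from 111 to 168 (median 136) in artery and from 152 to 256 (median 184) in ventricle. Artery 2 and artery 6 reached the ventricle range, and artery was lower in 6 of 6 litters. The difference of Acadm was -0.45 ± 0.13 (limma adjusted p = 0.0238), lost without litter 3, litter 5, artery 3 or ventricle 6 (limma adjusted p from 0.0570 to 0.0878, with the block at most 0.0479). Acads, the short-chain enzyme, ran from 32.7 to 62.6 (median 42.6) in artery and from 49.4 to 97.01 (median 60.6) in ventricle. Litter 1 went against the other 5 litters for Acads. Its difference of -0.57 ± 0.17 (limma adjusted p = 0.0297) was lost without litter 2, litter 3, litter 5, litter 6, artery 3, artery 5, ventricle 2, ventricle 3 or ventricle 6 (limma adjusted p from 0.0531 to 0.115, with the block at most 0.0977).

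Since so many of the genes were lower together, their promoters were searched for the binding motifs of regulators known for this pathway. RefSeq promoter windows (GRCm38.p6, 250 bases before to 50 after the start) were held for 26 of the 32 genes, as 29 windows of 300 bases. The genes with no window were Cpt1b, Crat, Acaa2, Lpl, Decr1 and Acot13. Both strands were searched. The element of the estrogen-related receptors, TCAAGGTCA, was in 0 of the 26 genes, against 0.466% of all 27025 genes with a window, and the direct repeat of PPAR and RXR, which is the half-site AGGTCA, any 1 base and AGGTCA again, in 0, against 0.0481%. The shorter half-site AAGGTCA, which is part of the first of these, was in 1 gene, Acadm, against 5.38%. The motif of nuclear respiratory factor NRF1, GCGCA followed by its reverse complement TGCGC, was in 2 genes, Etfdh and Ppara, against 1.07%. The estrogen-related receptor element and the direct repeat are so rare over all genes that 0 matches in 26 genes were likely from the start. Nothing about the control of these genes follows from those results. A match is a run of letters in the window, and binding was not measured. The Acadm window, chr3:153944594-153944893 on the minus strand, is shown because it holds the half-site, in capitals at positions -249 to -243 from the start and on the opposite strand to the gene, so that it reads reversed and complemented.
Acadm promoter: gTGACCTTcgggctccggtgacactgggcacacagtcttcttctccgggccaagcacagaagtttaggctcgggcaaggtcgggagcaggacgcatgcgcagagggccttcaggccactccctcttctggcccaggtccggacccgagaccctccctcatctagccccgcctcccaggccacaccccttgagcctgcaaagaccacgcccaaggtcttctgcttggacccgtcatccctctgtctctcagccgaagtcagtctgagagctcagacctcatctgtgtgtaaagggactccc

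Of the 6 genes of the later steps, 5 were lower. Hadha and Hadhb encode the alpha and beta subunits of the mitochondrial trifunctional protein, which carries out the remaining steps on long chains. They lie head to head on chromosome 5, Hadha at chr5:30118304-30155162 on the minus strand and Hadhb at chr5:30155248-30184593 on the plus strand. Between their starts in the GENCODE annotation are 85 bases. The RefSeq window of Hadha, chr5:30154931-30155230, rests on another start, so the gap differs by that annotation. The Hadhb promoter window, chr5:30155003-30155302 on the plus strand, is shown because it spans the GENCODE gap between the pair, in capitals.
Hadhb promoter: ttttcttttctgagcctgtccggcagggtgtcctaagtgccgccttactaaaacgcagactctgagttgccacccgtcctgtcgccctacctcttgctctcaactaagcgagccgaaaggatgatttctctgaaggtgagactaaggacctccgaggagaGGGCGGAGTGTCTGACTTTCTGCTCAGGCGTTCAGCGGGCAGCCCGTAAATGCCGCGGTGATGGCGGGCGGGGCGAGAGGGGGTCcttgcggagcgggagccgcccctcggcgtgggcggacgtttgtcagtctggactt

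Hadhb had values of 109.9, 153, 92.0, 139, 85.9 and 141 in artery for litters 1 to 6. In ventricle they were 214, 343, 226, 175, 168 and 218, each above the highest artery library. The difference was -0.89 ± 0.19 (limma adjusted p = 0.00349). Hadha ran from 162 to 307 (median 239.8) in artery and from 283 to 544 (median 352) in ventricle, where artery 1 alone reached into the ventricle range. Its difference was -0.63 ± 0.18 (limma adjusted p = 0.0208), lower in 6 of 6 litters and lost without litter 3, litter 6 or artery 3 (limma adjusted p from 0.0514 to 0.0975, with the block at most 0.0506). Acaa2, the mitochondrial thiolase that closes the spiral, lies at chr18:74779197-74806208 (plus strand). Its values were 240.4, 193, 154, 322, 168 and 206 in artery for litters 1 to 6. In ventricle they were 442, 514, 466, 474, 486 and 536, among the most even of the 32 genes (coefficient of variation 6.97%). The groups stood well apart, and the difference of -1.22 ± 0.15 had the smallest p of the 32 (limma adjusted p = 6.37e-05).

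Echs1, the short-chain enoyl-CoA hydratase, ran from 87.3 to 134 (median 101) in artery and from 120.5 to 172 (median 135) in ventricle, and artery 6 alone reached the ventricle range. Its difference was -0.46 ± 0.12 (limma adjusted p = 0.0128), lost without litter 3 (limma adjusted p = 0.0594, with the block at most 0.0266). Hadh, the dehydrogenase for medium and short hydroxyacyl chains, ran from 73.0 to 114 (median 87.4) in artery and from 105 to 163 (median 115) in ventricle. Artery 6 alone reached the ventricle range and each litter had artery lower. The difference of Hadh was -0.45 ± 0.13 (limma adjusted p = 0.0206), lost without litter 3 or artery 3 (limma adjusted p from 0.0504 to 0.0830, with the block at most 0.0436). Acaa1a, a thiolase of peroxisomes and not of mitochondria, had a difference of 0.24 ± 0.14 and did not pass (limma adjusted p = 0.252).

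Unsaturated fatty acids need extra enzymes. Eci1, the mitochondrial enoyl-CoA isomerase, ran from 24.2 to 51.9 (median 38.1) in artery and from 44.8 to 102 (median 55.3) in ventricle. It was lower in each litter, with artery 1 and artery 6 in the ventricle range. The difference of Eci1 was -0.72 ± 0.21 (limma adjusted p = 0.0251), lost without litter 2, litter 3, litter 5, artery 3, artery 5, ventricle 2 or ventricle 6 (limma adjusted p from 0.0512 to 0.0874, with the block at most 0.0236). Decr1, the mitochondrial dienoyl-CoA reductase, did not pass at -0.29 ± 0.11 (limma adjusted p = 0.0664), although its artery library was the lower of the pair in 6 of 6 litters, and passed with lane as a term. Eci2, an isomerase of peroxisomes and mitochondria, differed by -0.015 ± 0.102 (limma adjusted p = 0.933), and its sign turned with the processing.

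The 3 electron transfer genes, which pass electrons from the dehydrogenases to ubiquinone, were all lower. Etfa and Etfb encode the subunits of the electron transfer flavoprotein, and Etfdh the enzyme of the inner membrane that it hands electrons to. Etfdh ran from 54.1 to 98.6 (median 73.8) in artery and from 93.3 to 188 (median 116) in ventricle, with artery 2 alone inside the ventricle range. Its difference was -0.71 ± 0.18 (limma adjusted p = 0.0115), lost without litter 3 (limma adjusted p = 0.0580, with the block at most 0.0134). The Etfdh promoter window, chr3:79628718-79629017 on the minus strand, is shown for its NRF1 motif, in capitals at positions -128 to -119 from the start.
Etfdh promoter: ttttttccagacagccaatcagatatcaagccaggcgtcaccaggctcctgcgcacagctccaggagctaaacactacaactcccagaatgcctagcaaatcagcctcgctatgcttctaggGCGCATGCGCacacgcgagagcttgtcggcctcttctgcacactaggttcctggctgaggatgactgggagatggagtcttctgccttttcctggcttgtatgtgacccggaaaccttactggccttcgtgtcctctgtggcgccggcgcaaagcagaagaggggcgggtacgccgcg

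Etfa ran from 79.5 to 151 (median 95.0) in artery and from 129 to 251 (median 152) in ventricle, with artery 6 the only one in the ventricle range. It differed by -0.69 ± 0.18 (limma adjusted p = 0.0138), lost without litter 3 (limma adjusted p = 0.0672, with the block at most 0.0161). Etfb ran from 76.8 to 134 (median 93.3) in artery and from 119.5 to 195 (median 137) in ventricle, with artery 6 in the ventricle range and the litter 1 pair almost equal. Its difference was -0.53 ± 0.15 (limma adjusted p = 0.0217), lost without litter 2, litter 3, litter 5, artery 3 or ventricle 6 (limma adjusted p from 0.0502 to 0.0894, with the block at most 0.0708). Neither of the 2 thioesterases, which split acyl-CoA back into fatty acid and coenzyme A, passed. Acot2, of the mitochondrial matrix, differed by -0.48 ± 0.21 (limma adjusted p = 0.119) and Acot13 by -0.61 ± 0.26 (limma adjusted p = 0.111), and for both litter 1 went against the other 5.

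Of the regulators, Ppargc1a, which encodes PGC-1 alpha and lies at chr5:51454250-51567726 (minus strand), had values of 19.2, 41.1, 15.1, 30.8, 16.6 and 27.4 in artery for litters 1 to 6. In ventricle they were 46.6, 76.9, 46.4, 36.5, 37.8 and 49.3. Artery 2 alone reached into the ventricle range, and within each litter artery was the lower. The difference was -0.98 ± 0.24 (limma adjusted p = 0.00877), and it passed the test in all 18 omissions. Ppara, the gene of PPAR alpha, ran from 1.23 to 4.89 (median 3.03) in artery and from 3.13 to 7.54 (median 4.72) in ventricle. These low and overlapping values gave a difference of -0.65 ± 0.28 (limma adjusted p = 0.109).

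**Figure D4:**
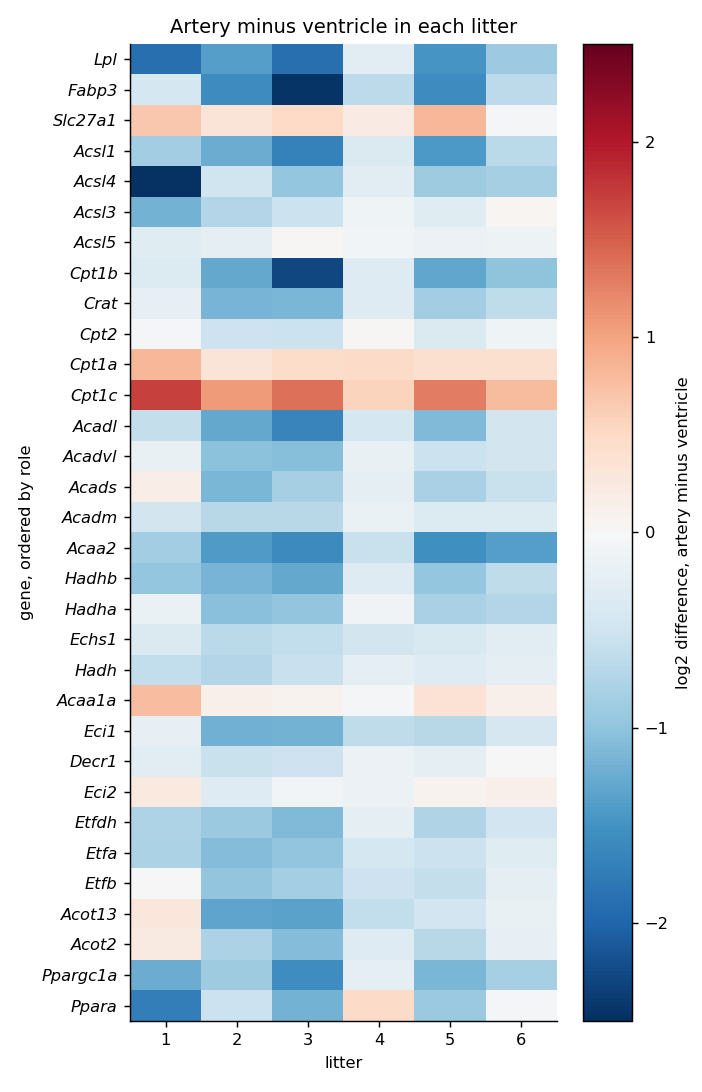
Difference of each of the 32 genes within each litter (columns), artery minus ventricle on the log2(value + 1) scale, with blue for lower in artery and red for higher. Cpt1a and Cpt1c are above 0 in every column, and litter 4 is paler than litters 2, 3 and 5.

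Most of the 32 genes were lower in each litter, by amounts that differed between litters. The number of the 32 genes lower in artery was 24 in litter 1, 28 in litter 2 and 27 in each of litters 3 to 6. The median difference over the 32 was -0.32, -0.91, -0.98, -0.24, -0.65 and -0.33 in litters 1 to 6, where the median over all tested genes was between -0.07 and 0.01. Artery was lower in 6 of 6 litters for 20 of the 32 genes (13.9% of all tested genes) and higher in 6 of 6 for 2 (13.2%). The deepest single change was that of Acsl4 in litter 1, at -2.47, and Fabp3 and Cpt1b followed in litter 3, at -2.45 and -2.27.

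Ratios of paired genes, each taken as value + 1 within a library, hardly depend on how libraries were scaled. The log2 ratio of Cpt1a to Cpt1b was 0.00, -0.29, 1.52, 0.19, 0.75 and -0.08 in artery for litters 1 to 6. In ventricle it was -1.16, -1.88, -1.22, -0.60, -0.95 and -1.48. The groups did not overlap, and the ratio, which is not corrected for transcript length, shifted towards the widespread form in every artery library relative to its litter. The difference was 1.56 ± 0.33, higher in artery in 6 of 6 litters (exact permutation test over the assignments of the 12 libraries, two-sided p = 0.00216, the smallest it can give, 0.00649 adjusted over 3 ratios). Taken by litter, the exact sign-flip test gave p = 0.0312, the smallest for 6 litters, and 0.0938 adjusted over 3 ratios, which is above the threshold of 0.05.

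The log2 ratio of Hadha to Hadhb was 0.97 ± 0.29 in artery and 0.71 ± 0.03 in ventricle (mean ± SD of 6 libraries). Ventricle libraries held this ratio within 0.66 to 0.74, whereas artery libraries spread from 0.61 in artery 6 to 1.48 in artery 1. The difference of 0.25 ± 0.12 did not pass after adjustment (exact permutation p = 0.0411, 0.0617 adjusted over 3 ratios). It passed without litter 6 (0.32, adjusted exact permutation p = 0.0119), without artery 6 (0.32, p = 0.00325) and without artery 2 (0.29, p = 0.0325). The log2 ratio of Acsl4 to Acsl1 was -1.32 ± 0.86 in artery and -1.38 ± 0.52 in ventricle, a difference of 0.06 ± 0.41 (exact permutation p = 0.883).

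**Figure D5:**
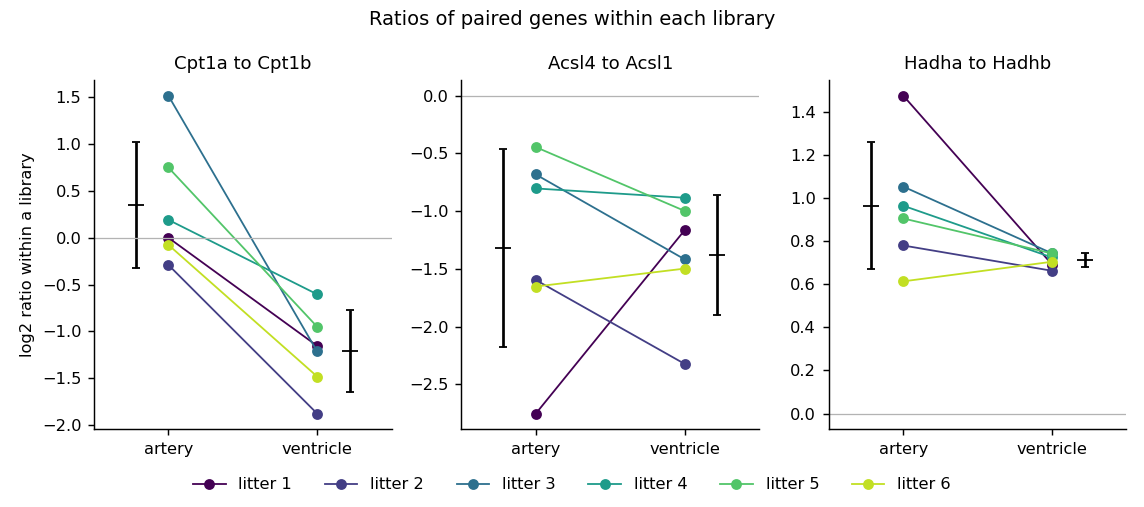
The 3 log2 ratios in each library, with the libraries of a litter joined and the group mean with 1 SD beside the points (n = 6). Cpt1a to Cpt1b separates the groups, Hadha to Hadhb is tight in ventricle (0.66 to 0.74) and spread in artery, and for Acsl4 to Acsl1 the ventricle range lies within the artery range.

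Per kilobase of the longest coding transcript, Fabp3 had the highest mean level in both groups, at 224 in artery and 489.7 in ventricle. Acaa2 was the second in both, at 141 and 321 per kilobase. Etfb followed at 112 and 162, with Acadl next in ventricle at 159. Ppara was the lowest in both groups, at 0.906 and 1.495 per kilobase.

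A wider list held 75 other genes of lipid uptake, oxidation, storage and control. Of its 69 tested genes, 15 were lower (21.7%, against 11.8% of all tested genes) and 6 were higher (8.70%, below the 12.2% of all tested genes), and the median difference was -0.13. Lower genes with the smallest p were the lipid binding proteins Fabp5 (-0.97 ± 0.13) and Fabp4 (-1.10 ± 0.21), the monoglyceride lipase Mgll (-0.80 ± 0.13), Gpihbp1, which anchors lipoprotein lipase to capillaries (-0.78 ± 0.15), and the estrogen-related receptor gene Esrra (-0.70 ± 0.14). The 6 higher genes, a smaller share than over all genes, included the thioesterase Acot11 (1.13 ± 0.15), Angptl4, an inhibitor of lipoprotein lipase (0.88 ± 0.14), and the transporters Slc27a3 (0.81 ± 0.16) and Slc27a6 (0.69 ± 0.17). Limma adjusted p was at most 0.00853 for each of these 9 genes. The count of lower genes on the wider list was 9 without litter 2, 7 without litter 3 and 9 without litter 5, in fits without the block. Of all tested genes, 5.7% were lower without litter 3, and the share was not taken without litter 2 or litter 5.

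The other routes of energy supply were lower beside the fatty acid genes. Over all tested genes, 11.8% were lower and 12.2% higher by limma, with a median difference of -0.04. Of 30 respiratory chain genes 23 were lower (median difference -0.69), of 18 citric acid cycle genes 17 (-0.72) and of 18 glycolysis genes 14 (-0.75). In each list 0 genes were higher, by limma, by edgeR or at an unadjusted p under 0.05. The genes with the smallest p in each were Sdha, a subunit of succinate dehydrogenase (-0.97 ± 0.19), Suclg2, of succinyl-CoA ligase (-0.91 ± 0.12), and Pgam1, a phosphoglycerate mutase (-0.66 ± 0.11), with limma adjusted p of 0.001997, 0.000141 and 0.000755. The first 2 lists share the 4 genes Sdha to Sdhd. Without litter 3, in the fit without the block, these counts were 12, 8 and 9, where 5.7% of all tested genes were lower. The medians of these lists and of the fatty acid genes were not tested against each other.

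Some of these values carry uncertainty of assignment. Of the 50-base words of Cpt1b, 93% also occur in Gm44502, a gene model on the same strand that overlaps it by 2744 bases. Shares of words found elsewhere were 67.3% for Etfb (Gm45233), 61.5% for Hadhb (Gm13910), 34.0% for Acaa1a (Acaa1b), 29.2% for Fabp3 (Fabp3-ps1), 24.5% for Acot2 (Acot1) and 7.19% for Eci2 (Eci3). Without strand information, reads of Acadvl cannot be told from those of Dvl2 over 1151 shared bases on the opposite strand, nor those of Acaa1a from Myd88 over 290. The same holds for Acsl1 (Gm45244, 1039 bases), Crat (Gm16323, 411), Acsl5 (Zdhhc6, 404), Cpt1c (6530437J22Rik, 366) and Etfdh (4930579G24Rik, 278), and over shorter stretches for Hadha, Echs1, Eci2 and Fabp3.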

How the data were processed

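PolyA RNA of outer heart layers, pooled by litter, was made into NEBNext Ultra libraries and sequenced as single reads of 50 bases, per the labels' protocols. Per the submitters' processing notes, CASAVA 1.8.2, cutadapt 1.3 and RSEM 1.2.3 were used with build GRCm38. Which tool normalized the values, and whether genes were removed, is not given in the sources used here. Values deposited by the authors are a normalized signal, which was found to be CPM on scaled library sizes, after 0.5 was added to each whole read number, and 100% of the 211644 values came out whole within 0.02 reads. The kit does not mark strand.

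Genes with a mean of at least 1 (14779 tested, 2858 below) were fitted with limma 3.58.1 in R 4.3.3 on log2(value + 1), with a pseudocount of 1 and a trended, robust prior, with Benjamini-Hochberg adjustment, a threshold of 0.05 and two-sided tests. The procedure was tested on simulated libraries with the same spread setting for every gene and no litter pairs, lanes or outlying libraries. That test does not cover these features of the data. The edgeR 4.0.16 and DESeq2 1.42.0 fits on the recovered reads, limma-voom, a litter block, lanes, other scalings and omissions of libraries were alternatives. P-values cover the spread among pools of a group, each from a different litter. Both groups drew on the same litters, so their pools are pairs and not independent sets of animals. The main fit leaves this pairing out, and the litter block takes it up. The 32 genes, the other lists and the tests were chosen with earlier results of these data known. Each gene past the test and the 3 highest per kilobase are given by library or by lowest, median and highest library. Of the other pathway genes, up to 5 in each direction with the smallest p are named, and 1 of these is not reported here. Of the lists of other energy routes, 1 gene each is named, by the same rule.

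Litter numbers pair the libraries, since the labels say that both tissues of a litter were pooled from it. The mean correlation of deviations from group means was 0.215 within litters and -0.043 between them, and 3 of 6 artery libraries were closest to their own litter. Libraries of a group differed by more than sampling noise (chi-square over degrees of freedom at least 10.2). Coordinates are from GENCODE M21 (GRCm38) and promoter sequences from RefSeq (GRCm38.p6).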

Additional observations from a re-analysis of the deposited data

Results flagged for a closer look

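In ventricle 2, the value of 12 of the 32 genes lay far above the other 5 ventricle libraries, by a gap larger than 95% of such gaps in even groups. These were Cpt1b at 312, against 114 to 182 in the others, Crat at 268 (133 to 181), Acadl at 509 (222.5 to 299.8) and Hadha at 544 (283 to 379). Hadhb stood at 343 (168.5 to 226), Etfdh at 188 (93.3 to 118.5), Acsl1 at 188 (68.9 to 110.4) and Lpl at 378 (185.5 to 257.5). The smaller ones were Ppargc1a at 76.9 (36.5 to 49.3), Eci2 at 92.4 (65.8 to 75.7), Decr1 at 72.3 (50.3 to 57.0) and Acot2 at 43.2 (20.8 to 27.5). Of 64 groups of 6 libraries examined, these 12 were the ones with such a gap, where chance gives about 1 in 20, and the 32 genes are not independent of each other. The heart muscle markers held 4.15% of reads in ventricle 2, the highest share of the 12 libraries, and their part in these values was not tested. Without ventricle 2, 17 of the 32 genes were lower in artery and 3 were higher.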

How the results depend on the processing

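The litter block changed the call of 0 of the 32 genes (20 lower and 3 higher with the block and without it), and so did pseudocounts of 0.5 and 2 and no filter. The counts were 20 and 3 by edgeR (with or without the block), TMM, DESeq2 size factors, lanes as a term (where Cpt1b was lost and Decr1 gained) and a minimum of 5, 21 and 3 by limma-voom and plain CPM, and 22 and 3 by DESeq2. Within lane 1 and within lane 2 they were 2 and 1. Leaving out 1 litter or library gave 5 to 22 lower and 1 to 3 higher genes, with the fewest lower without litter 3 (16 and 2 there with the block). The share over all tested genes is given above for some of these settings. It was not taken for the rest, whose counts are therefore not set against it. For the other pathway genes, omissions gave 7 to 19 lower and 4 to 7 higher (17 and 7 with the block), for the respiratory chain 12 to 27 lower, the citric acid cycle 8 to 18 and glycolysis 9 to 16. The Cpt1a to Cpt1b ratio differed by 1.33 to 1.717 over omissions and lost its adjusted call by the litter block (sign-flip, 1.56, adjusted exact p = 0.0938). Acsl4 to Acsl1 ran from -0.13 to 0.39 and Hadha to Hadhb from 0.15 to 0.32 over omissions. Eci2 turned above 0 by TMM (0.0024), edgeR (0.0018, or 0.0015 with the block), within lane 1 (0.0166) and without artery 1 and artery 4 (0.0303), and ran from -0.0684 to 0.0482 over omissions (with the block, 0.0482 without litter 2 and 0.0121 without litter 4). The cause of these shifts was not tested. The fewest reads of a gene in a library were 8, for Ppara, and 45 for Acsl4, so low values in artery 1 and artery 6 (6.77 and 7.97 M reads) are the least precise.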
